A study of Sus scrofa with 16 samples.

Results

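A set of 10 genes of the basement membrane was followed through aortic valve interstitial cells of pigs, the fibroblast-type cells that fill the valve leaflet. They were the collagen IV chain genes COL4A1 and COL4A2, the laminin chain genes LAMA2, LAMA4, LAMB1, LAMB2 and LAMC1, the nidogen genes NID1 and NID2, and HSPG2, the gene of perlecan. The genes were chosen by name, as 10 of the 29552 named genes in the deposited count table, and all 10 passed the filter on low counts. Cells of 4 female and 4 male biological replicates, from pigs of 5 to 6 months, had been cultured over 48 hours, with serum at 1%. The 4 groups were female cells on tissue culture plastic, female cells on a soft poly(ethylene glycol)-norbornene hydrogel with a modulus of about 5.8 kPa, male cells on plastic and male cells on that hydrogel, with 4 libraries each. The submitters regarded the cells on plastic as myofibroblasts and those on the gel as quiescent fibroblasts, so these names stand for the surface and not for a sort. No allele or drug was involved, and every cell had been taken out of the leaflet and grown in culture. The labels do not say that a replicate number marks the same pig on both surfaces.

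A basement membrane is a thin sheet of matrix on which epithelia and endothelia rest and which also wraps muscle, fat and nerve cells. Laminins, each joined from an alpha, a beta and a gamma chain, form a network at the cell surface, and collagen IV, in which the chains of COL4A1 and COL4A2 are wound together, forms another. Nidogens bind to both networks, and perlecan, a large heparan sulfate proteoglycan, joins them and holds growth factors. In the valve leaflet such a sheet lies beneath the covering endothelium, and collagen IV and perlecan are also made by smooth muscle and pericytes around vessels.

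Polyadenylated RNA had been sequenced, and the libraries held 16.9 to 27.44 M counts. Levels are given as CPM, counts relative to the size of the library after TMM scaling, which evens out the composition of the libraries. CPM is not per length, so levels were compared only within a gene. Changes are log2 of plastic over gel from a quasi-likelihood fit over all 14530 tested genes, and a gene is said to have risen or fallen only at an adjusted p under 0.05. The surface labels were checked on ACTA2, TAGLN, CNN1 and CTGF, contractile and tension-responsive genes, of which 4 of 4 rose on plastic in both sexes. ACTA2 averaged 18199 ± 4977 CPM on plastic and 4024 ± 1944 CPM on the gel in female cells, and 19949 ± 1767 CPM on plastic and 3992 ± 1071 CPM on the gel in male cells (SD, n = 4 each). The 9 interstitial and mesenchymal markers, which include VIM, COL1A1 and PDGFRA, were present in every library, but PDGFRA, DCN and LUM fell on plastic in both sexes. PDGFRA fell by 2.38 in female cells and fell by 2.44 in male cells on the log2 scale. The part of this in the results was not tested. Male gel 2 stood apart, with the fewest counts (16.9 M) and the lowest HSPG2, LAMB2 and LAMA5 of all 16 libraries, so the male changes of the 10 genes are also given without it. Among the other basement membrane matrix, receptor, biosynthesis and protease genes named below, COL4A5 was the 1 gene that lost its male call without it.

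**Figure D1:**
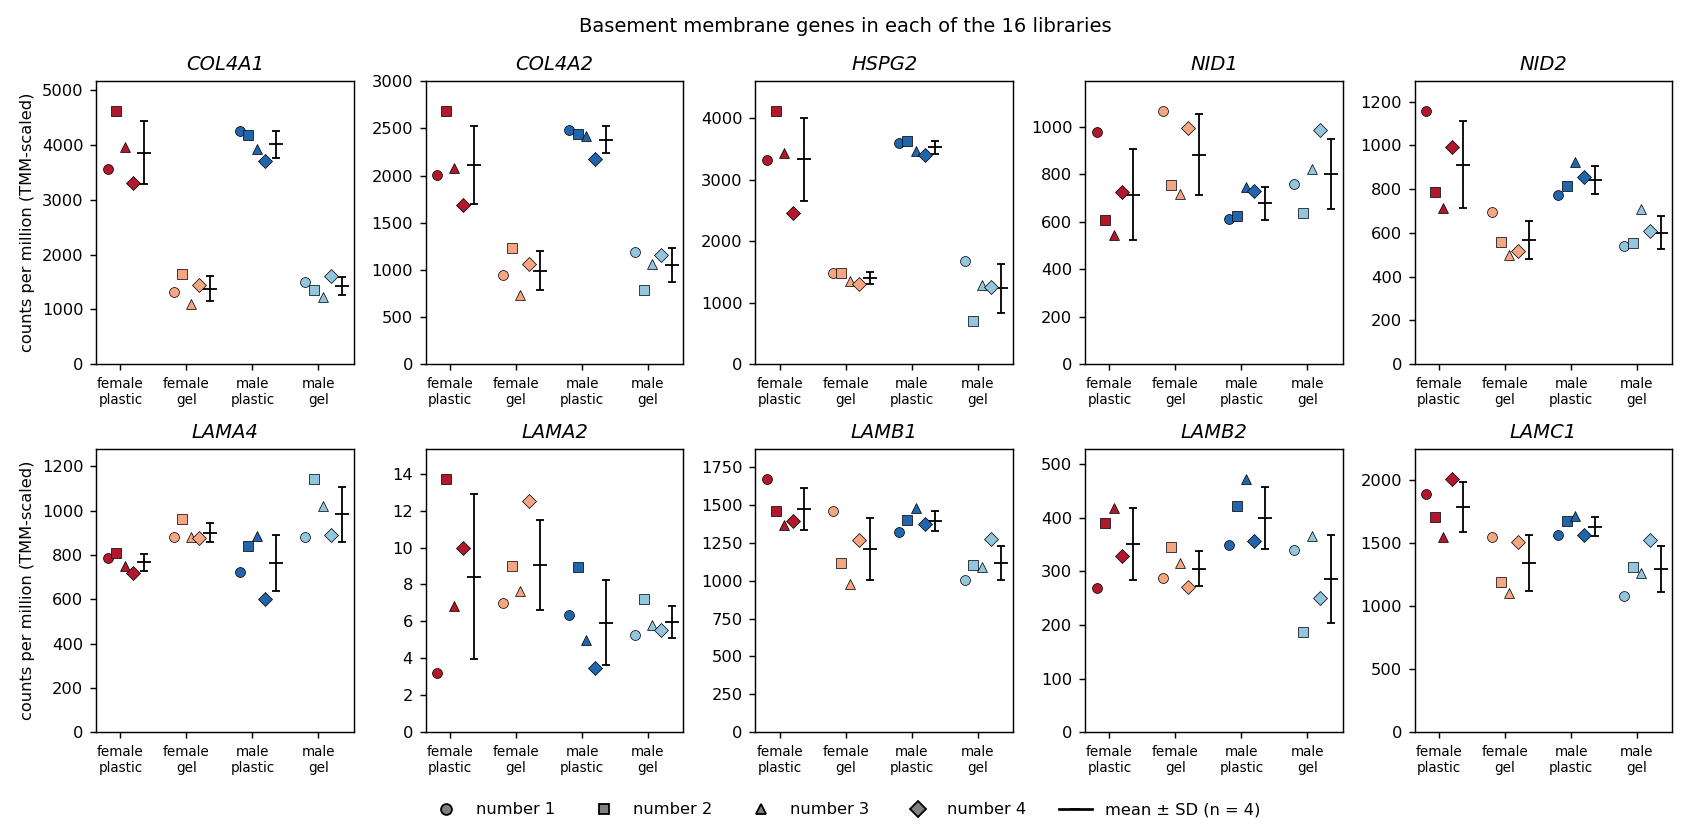
Levels of the 10 basement membrane genes in each library, in TMM-scaled CPM, by group; symbols give the replicate number, and bars the mean ± SD of 4 libraries. The plastic libraries of COL4A1, COL4A2, HSPG2 and NID2 lie above all gel libraries of the same sex, and those of NID1 do not.

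Among the 10 genes, COL4A1, COL4A2, HSPG2 and NID2 RNA was higher on plastic in both sexes. Of the laminin chains in the set, LAMC1 rose in female cells and LAMA4 fell in male cells. With the replicate number as a block, LAMB1 and LAMC1 rose in both sexes, LAMB2 rose and LAMA4 fell in male cells, and NID1 fell in female cells. In female cells 5 of the 10 rose (COL4A1, COL4A2, HSPG2, NID2 and LAMC1), where 12.7% of all tested genes rose, and 0 fell, where 11.3% of all genes fell. In male cells 4 rose (COL4A1, COL4A2, HSPG2 and NID2), against 12.9% of all genes, and 1 fell (LAMA4), against 12.9%. Without male gel 2, male cells had 3 that rose (12.9% of all genes) and 0 that fell (11.7%), and NID2 and LAMA4 were the calls lost. The median change of the 10 genes was 0.35 in female and 0.41 in male cells, beside -0.04 and -0.03 over all tested genes. Plastic and gel libraries did not overlap for 6 of the 10 genes in female cells (27.7% of all genes) and for 6 in male cells (28.9%).

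COL4A1 and COL4A2 lie head to head on chromosome 11 of Sscrofa11.1, at 76858332 to 76997409 and 76996885 to 77161617, and their annotated spans share 525 bases. A strand setting for the counting is not given in the sources used here, and reads from those bases could belong to either gene. COL4A1 had 3573, 4617, 3966 and 3306 CPM in the female plastic libraries 1 to 4, against 1322, 1646, 1100 and 1454 CPM in the female gel libraries. The male plastic libraries had 4251, 4185, 3924 and 3710 CPM, against 1499, 1361, 1230 and 1603 CPM in the male gel libraries. The lowest plastic library, at 3306 CPM in female and 3710 CPM in male cells, was thus far above the highest gel library, at 1646 and 1603 CPM. COL4A1 rose 2.8-fold in female cells (log2 change 1.49, SE 0.13, edgeR adjusted p = 1.24e-06) and 2.82-fold in male cells (1.50, SE 0.13, adjusted p = 1.04e-06), with a male change of 1.48 (adjusted p = 6.11e-06) without male gel 2. The change within a replicate number ran from 1.18 to 1.85 over the 8 pairs of libraries. In these bulk samples, a change in the number of cells that make an RNA and a change in RNA per cell cannot be told apart.

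COL4A2 had 2001, 2680, 2082 and 1686 CPM in the female plastic libraries, against 943, 1228, 733 and 1058 CPM in the female gel libraries. Male cells had 2486, 2443, 2423 and 2174 CPM of it on plastic, against 1191, 791, 1059 and 1155 CPM on the gel. Again no plastic library overlapped a gel library of its sex, and male gel 2 was the lowest of the male gel libraries. COL4A2 rose 2.13-fold in female cells (1.09, SE 0.17, edgeR adjusted p = 0.000167) and 2.27-fold in male cells (1.18, SE 0.17, adjusted p = 7.44e-05); without male gel 2 the male change was 1.07 (adjusted p = 0.000231).

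The ratio of COL4A1 to COL4A2 counts within a library needs no scaling, and asks whether the chains of the same molecule kept their proportion. It was 1.79, 1.72, 1.91 and 1.96 in the female plastic libraries, against 1.4, 1.34, 1.5 and 1.37 in the female gel libraries. In the male plastic libraries the ratio was 1.71, 1.71, 1.62 and 1.71, against 1.26, 1.72, 1.16 and 1.39 in the male gel libraries. Every female plastic library was above every female gel library; in male cells male gel 2 reached the plastic values. The ratio differed by 0.39 on the log2 scale in female cells (exact permutation p = 0.0286, two-sided, the smallest that 70 assignments allow; Benjamini-Hochberg adjusted p = 0.0762 over the 8 ratio tests). In male cells it differed by 0.30 (exact permutation p = 0.143, adjusted p = 0.286), and by 0.41 without male gel 2 (exact permutation p = 0.0286, adjusted p = 0.0571). None of these passed the adjusted threshold, but even female groups without overlap gave an adjusted exact permutation p of only 0.0762. Missing the threshold therefore does not show that the chains kept their proportion.

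HSPG2, on chromosome 6 at 79849691 to 79958283, had 3314, 4108, 3429 and 2458 CPM in the female plastic libraries, against 1483, 1486, 1356 and 1297 CPM in the female gel libraries. The male plastic libraries had 3599, 3631, 3472 and 3396 CPM, against 1677, 708, 1290 and 1256 CPM in the male gel libraries. The groups did not overlap in either sex. Among plastic libraries, female plastic 4 was the lowest, and male gel 2 held well under the level of every other gel library. Perlecan RNA rose 2.37-fold in female cells (log2 change 1.24, SE 0.20, edgeR adjusted p = 0.000216) and 2.86-fold in male cells (1.52, SE 0.20, adjusted p = 3.65e-05). Without male gel 2 the male change was 1.32 (adjusted p = 1.56e-05).

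Of the nidogens, NID2 rose in both sexes and NID1 was not called in either. NID2, on chromosome 1 at 181699098 to 181773084, had 1156, 788, 714 and 994 CPM in the female plastic libraries, against 695, 557, 501 and 517 CPM in the female gel libraries. Male cells had 773, 815, 924 and 854 CPM on plastic, against 539, 553, 709 and 607 CPM on the gel. The groups came close but did not overlap, and the plastic library was the higher in 8 of 8 pairs. The share of all genes with 8 of 8 pairs on the same side was not counted, here or for NID1, LAMB1 and LAMA4 below. NID2 rose 1.61-fold in female cells (log2 change 0.69, SE 0.15, edgeR adjusted p = 0.00277) and 1.4-fold in male cells (0.48, SE 0.15, adjusted p = 0.024). The male call was lost without male plastic 3 (adjusted p = 0.0712), male plastic 4 (0.0517), male gel 1 (0.0632) or male gel 2 (0.055), with changes of 0.43 to 0.57 over the fits that left out 1 library.

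NID1, on chromosome 14 at 55239327 to 55346948, had 979, 608, 544 and 725 CPM in the female plastic libraries, against 1064, 756, 716 and 992 CPM in the female gel libraries. Male cells had 611, 625, 744 and 729 CPM on plastic, against 759, 635, 823 and 985 CPM on the gel. The groups overlapped widely in both sexes, and the plastic library was the lower in 8 of 8 pairs, with log2 changes of -0.45 to -0.02. NID1 was not called in female cells (-0.30, 95% interval -0.69 to 0.08, edgeR adjusted p = 0.246) or in male cells (-0.24, interval -0.62 to 0.14, adjusted p = 0.352). With the replicate number as a block it fell in female cells (-0.32, adjusted p = 0.0262), and in male cells the adjusted p was 0.0925. Without both libraries of male number 2 the block gave a fall in male cells too (-0.30, adjusted p = 0.0364), while leaving out male gel 2 alone without the block did not (-0.34, adjusted p = 0.208).

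Set against each other within a library, the nidogens separated the surfaces without overlap. The NID1 to NID2 count ratio was 0.847, 0.772, 0.762 and 0.73 in the female plastic libraries, against 1.53, 1.36, 1.43 and 1.92 in the female gel libraries. In male cells it was 0.791, 0.767, 0.805 and 0.853 on plastic, against 1.41, 1.15, 1.16 and 1.62 on the gel. NID2 counts thus exceeded NID1 counts in all 8 plastic libraries, and NID1 counts exceeded NID2 counts in all 8 gel libraries. As counts are not per length, this does not tell which nidogen had more RNA, and only the shift of the ratio between surfaces is compared. The log2 ratio averaged -0.36 ± 0.09 on plastic and 0.63 ± 0.22 on the gel in female cells, a difference of -0.99, and -0.32 ± 0.06 on plastic and 0.40 ± 0.24 on the gel in male cells, a difference of -0.72 (SD, n = 4 each). The exact permutation p was 0.0286 in each sex, the smallest possible, and 0.0762 after adjustment over the 8 tests; flipping the sign of the 4 paired differences of a sex gave p = 0.125, the smallest of 16 assignments.

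**Figure D2:**
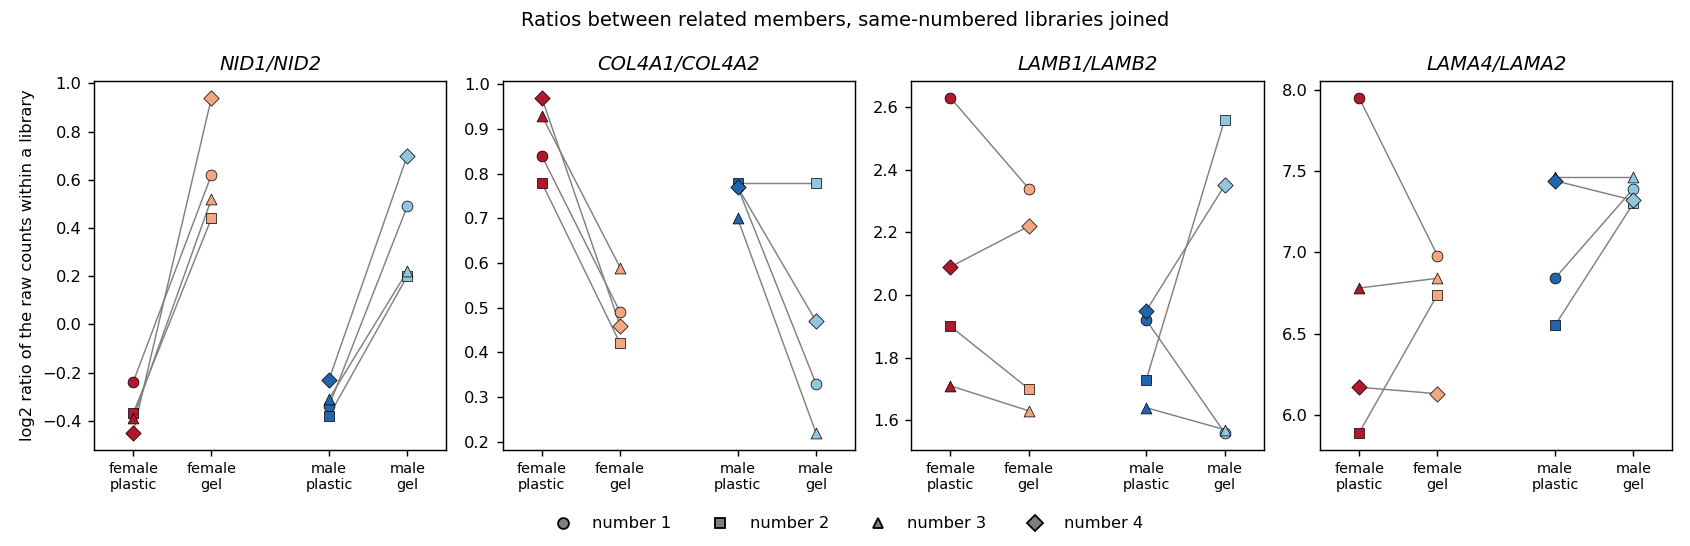
Log2 ratio of the raw counts of related genes within each library, with same-numbered libraries of a sex joined; each panel has its own scale. The NID1/NID2 ratio lies below 0 in all 8 plastic libraries and above 0 in all 8 gel libraries, while LAMB1/LAMB2 and LAMA4/LAMA2 overlap between surfaces.

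Among the laminin chains in the set of 10 genes, changes were small and went in both directions. Larger rises of alpha chains outside the set are given further below. LAMC1 encodes the gamma chain of most laminins and lies on chromosome 9 at 124283668 to 124405967. It had 1886, 1704, 1550 and 2005 CPM in the female plastic libraries, against 1549, 1191, 1106 and 1504 CPM in the female gel libraries. Male cells had 1561, 1677, 1711 and 1565 CPM on plastic, against 1078, 1312, 1259 and 1523 CPM on the gel. The lowest plastic library exceeded the highest gel library by a narrow margin in either sex. LAMC1 rose 1.34-fold in female cells (log2 change 0.42, SE 0.13, edgeR adjusted p = 0.0259), a call lost without female plastic 4 (adjusted p = 0.0791), female gel 2 (0.0816) or female gel 3 (0.0908). In male cells it was not called (0.33, 95% interval 0.06 to 0.60, adjusted p = 0.0673), but with the replicate number as a block it was (0.34, adjusted p = 0.0202). Without male gel 2 the male change was 0.34 (adjusted p = 0.092).

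LAMB1, the beta chain most often paired with it, lies on chromosome 9 at 107670120 to 107747242. It had 1670, 1458, 1369 and 1396 CPM in the female plastic libraries, against 1458, 1120, 980 and 1267 CPM in the female gel libraries. Male cells had 1320, 1404, 1477 and 1376 CPM on plastic, against 1004, 1104, 1090 and 1274 CPM on the gel. The female groups overlapped and the male groups did not, and the plastic library was the higher in 8 of 8 pairs. LAMB1 was not called in female cells (0.29, 95% interval 0.04 to 0.54, edgeR adjusted p = 0.0866) or male cells (0.32, interval 0.07 to 0.57, adjusted p = 0.0557). It passed with the replicate number as a block in female cells (0.30, adjusted p = 0.0325) and male cells (0.32, adjusted p = 0.0221). Without male gel 2 the male change was 0.31 (adjusted p = 0.0871).

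LAMB2, the other beta chain, lies on chromosome 13 at 31738282 to 31750623. It had 269, 390, 418 and 328 CPM in the female plastic libraries, against 288, 345, 316 and 271 CPM in the female gel libraries. Male cells had 349, 423, 472 and 356 CPM on plastic, against 340, 187, 366 and 250 CPM on the gel. Both pairs of groups overlapped. The change was 0.20 in female cells (95% interval -0.19 to 0.60, edgeR adjusted p = 0.468) and 0.49 in male cells (interval 0.09 to 0.88, adjusted p = 0.0656). The male change was called with the replicate number as a block (0.52, adjusted p = 0.0232), and was 0.33 (adjusted p = 0.163) without male gel 2, its lowest library. The female change had the opposite sign, -0.04, when scaled by total counts. The LAMB1 to LAMB2 count ratio did not differ detectably between surfaces, by 0.11 in female cells (exact permutation p = 0.686) and -0.20 in male cells (exact permutation p = 0.486).

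LAMA4, an alpha chain found in laminins of vessels, fat and mesenchymal cells, lies on chromosome 1 at 78071990 to 78224564 and went the opposite way. It had 788, 808, 749 and 720 CPM in the female plastic libraries, against 883, 964, 882 and 875 CPM in the female gel libraries. Male cells had 725, 839, 885 and 602 CPM on plastic, against 882, 1142, 1020 and 890 CPM on the gel. The female groups did not overlap, the male groups met at 885 against 882 CPM, and the plastic library was the lower in 8 of 8 pairs. LAMA4 fell in male cells (-0.37, SE 0.12, edgeR adjusted p = 0.029) and was not called in female cells (-0.23, 95% interval -0.48 to 0.01, adjusted p = 0.164). The male call was lost without male plastic 1 (adjusted p = 0.0785), male plastic 4 (0.096), male gel 2 (0.0788) or male gel 3 (0.0619).

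LAMA2, the alpha chain of muscle and nerve laminins, lies on chromosome 1 at 33765412 to 34359741 and gave few counts. It had 3.2, 13.7, 6.82 and 10 CPM in the female plastic libraries, against 6.99, 9.02, 7.67 and 12.5 CPM in the female gel libraries. Male cells had 6.34, 8.92, 5.01 and 3.47 CPM on plastic, against 5.26, 7.23, 5.78 and 5.56 CPM on the gel. The plastic libraries lay on both sides of the gel libraries. The change was -0.10 in female cells (95% interval -0.84 to 0.63, edgeR adjusted p = 0.861). In male cells it was -0.00 (interval -0.75 to 0.75, edgeR adjusted p = 0.997). Changes within these intervals remained compatible with the data. Leaving out male gel 2 gave 0.10 (adjusted p = 0.886) in male cells. The LAMA4 to LAMA2 ratio differed by 0.02 in female cells (exact permutation p = 0.914) and by -0.30 in male cells (exact permutation p = 0.371).

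**Figure D3:**
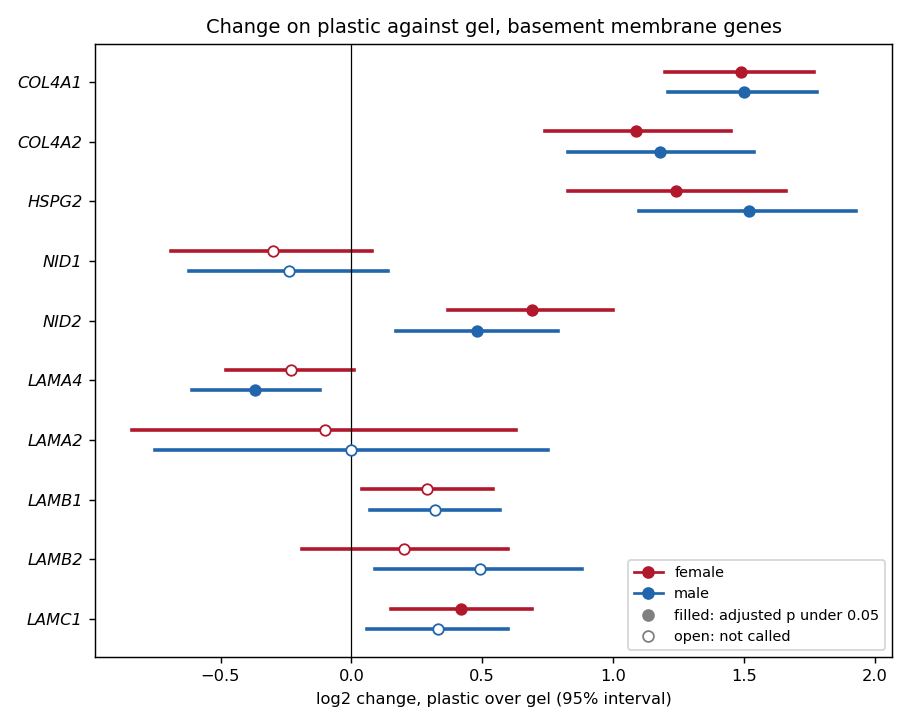
Log2 change on plastic over gel for the 10 genes with 95% intervals, female above male; filled points passed an adjusted p under 0.05. COL4A1, COL4A2, HSPG2 and NID2 are filled in both sexes, from 0.48 to 1.52, and NID1, LAMA4 and LAMA2 lie at or below 0.

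The smaller changes depended on how the libraries were scaled and paired, and those of COL4A1, COL4A2 and HSPG2 did not lose their calls. TMM factors were 0.8957 to 0.9836 on plastic and 1.048 to 1.124 on the gel, so that scaling by total counts alone moved every change down: the median of all genes became -0.28 in female and -0.27 in male cells, and that of the 10 genes 0.11 and 0.17. On that scale 4 of the 10 rose in female cells (7.38% of all genes) and 2 fell, LAMA4 and NID1 (29.8%). In male cells 3 rose (7.85%) and LAMA4 fell (33.1%). LAMC1 and the male change of NID2 were no longer called there (0.17, adjusted p = 0.34, in female LAMC1; 0.24, adjusted p = 0.25, in male NID2). COL4A1 stayed at 1.24 in female and 1.26 in male cells, COL4A2 at 0.85 and 0.94, and HSPG2 at 1.00 and 1.27. With the replicate number as a block, 6 rose (14.5% of all genes) and 1 fell (13.1%) in female cells, and 7 rose (15.5%) and 1 fell (14.2%) in male cells.

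Female and male cells did not differ detectably in any of the 10 genes. On plastic 0 of the 10 were called by edgeR (18 genes of the whole table, 0.124%; 284 at an unadjusted p under 0.05; 20 called by DESeq2), with adjusted p of 0.98 or more. On the gel 0 of the 10 were called (15 genes of the whole table, 0.103%; 560 unadjusted; 21 by DESeq2). Nor did the surface change differ between the sexes for any gene of the table (0%; 633 unadjusted; 0 by DESeq2). Each unadjusted count was below 0.05 of the 14530 tested genes, the share that arises by chance alone. The tests between the sexes may thus have been too strict. The intervals say how large a difference could have been missed. For COL4A1 the female minus male difference of surface changes was -0.01 (95% interval -0.41 to 0.38), for HSPG2 -0.27 (-0.85 to 0.31), for LAMB2 -0.28 (-0.84 to 0.27) and for NID2 0.20 (-0.24 to 0.64). LAMA2 had the widest interval between the sexes: female over male it was 0.51 on plastic (-0.24 to 1.25) and 0.61 on the gel (-0.13 to 1.35).

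Within the groups, the 10 genes differed in how often the same-numbered libraries of both surfaces lay on the same side of their group means. The share over all genes was not counted. Across all tested genes, same-numbered libraries deviated together (r = 0.13 to 0.49), so that keeping a side is not particular to these genes. NID1 lay on the same side of its group's mean on plastic and on the gel in 8 of 8 replicate numbers, NID2, LAMA4 and LAMA2 in 7, LAMB2 and LAMC1 in 6, COL4A2 in 5, and COL4A1, LAMB1 and HSPG2 in 4. NID1 of female number 1 lay 0.49 above the mean of its group on plastic and 0.29 above it on the gel (log2), and NID1 of female number 3 lay at -0.36 and -0.28. The summed level of 20 endothelial markers kept its side in 7 of 8. Female number 1, female number 4 and male number 4 had the highest endothelial sums of their sex on both surfaces: 962 and 718 CPM in female plastic 1 and 4 beside 388 to 428 CPM in the other female plastic libraries, and 535 and 576 CPM in female gel 1 and 4 beside 355 to 399 CPM in the other female gel libraries. Male number 4 had 625 CPM on plastic and 574 CPM on the gel, beside 378 to 497 CPM and 343 to 371 CPM in the other male libraries.

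In those 3 replicate numbers NID1 lay above the mean of its group on both surfaces. NID1 of male number 3 did so too (0.14 on plastic and 0.06 on the gel, log2), with an endothelial sum at 0.10 and -0.11. On plastic those 3 numbers held the lowest COL4A1 of their sex, 3573 and 3306 CPM in female cells and 3710 CPM in male cells. They also held the lowest MYH11, a smooth muscle myosin, at 295 and 361 CPM in female cells and 405 CPM in male cells. Of the other tested pericyte and smooth muscle markers, NOTCH3, SMTN, LMOD1 and SYNPO2 were also lowest there on plastic. CSPG4, MCAM, DES, CASQ2, PDGFRB, PLN, KCNJ8 and ABCC9 were not, so the list did not move as a whole. On the gel COL4A1 did not follow: male gel 4 held the highest of the male gel libraries (1603 CPM), and female gel 1 and 4 held 1322 and 1454 CPM, between the other female gel libraries at 1100 and 1646 CPM. CDH5, the endothelial cadherin, was present in every library, at 24.1 to 174 CPM in female plastic, 6.76 to 47.1 CPM in female gel, 21 to 87.9 CPM in male plastic and 4.97 to 44.8 CPM in male gel libraries. The mean of CDH5 was higher on plastic, and that of PECAM1 was lower. PECAM1 averaged 62.2 CPM on plastic and 69.3 CPM on the gel in female cells, and 37.7 and 55.2 CPM in male cells. Without the block, neither was called. ENG and ERG had the highest means of the listed endothelial markers in each group. ENG was similar on plastic and gel, at 177 and 182 CPM in female and 160 and 153 CPM in male cells. The part of endothelial cells in the levels of the 10 genes was not tested.

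**Figure D4:**
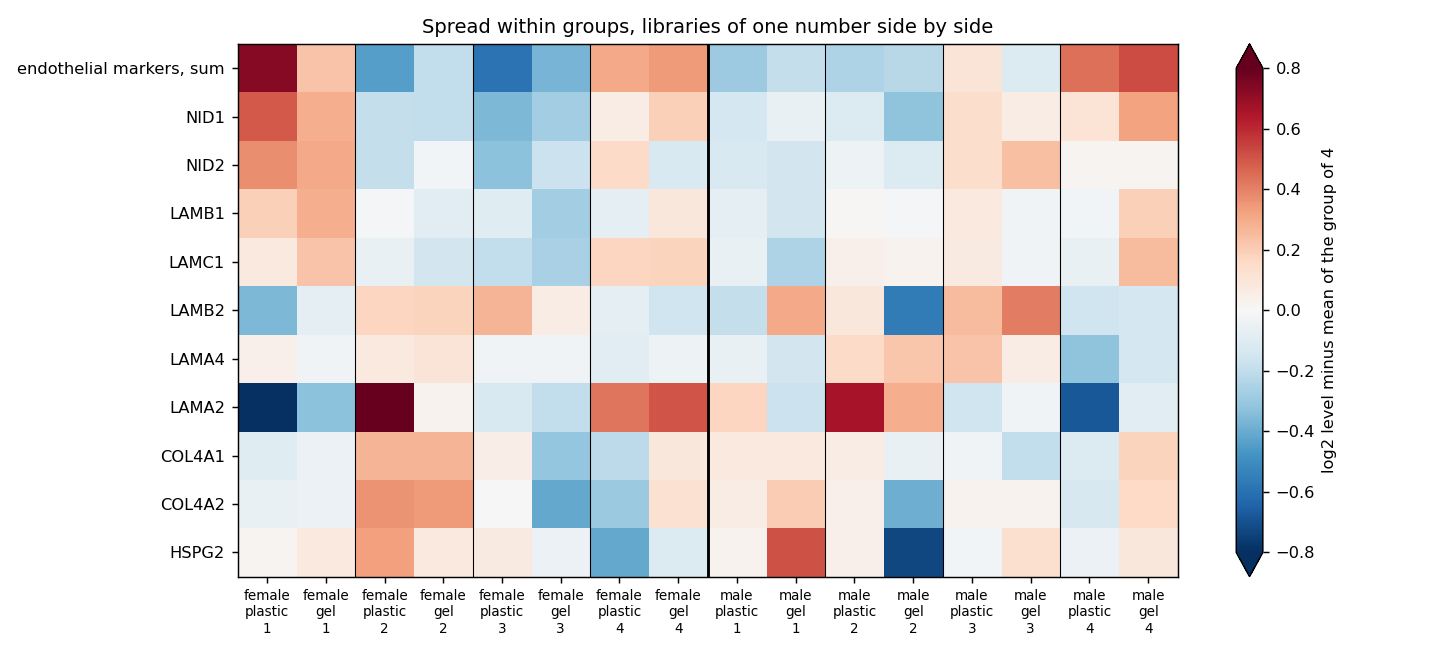
Log2 level of each gene, and of the summed endothelial markers, minus the mean of its group of 4, with the plastic and the gel library of a replicate number side by side (red above, blue below the mean). The row of NID1 has the same colour on both surfaces in all 8 replicate numbers; HSPG2 and LAMB2 are darkest blue in male gel 2.

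Markers of other cell types moved with the surface to different degrees. The sum of 14 pericyte and smooth muscle markers was 1860 to 3515 CPM in female plastic and 788 to 1209 CPM in female gel libraries, and 2395 to 3162 CPM in male plastic and 796 to 1170 CPM in male gel libraries. Of its 13 tested genes 8 rose in each sex, among them MYH11, CSPG4 and NOTCH3. Of all genes 12.7% rose in female and 12.9% in male cells. KCNJ8 and ABCC9 were the 2 that fell, near the share of all genes that fell (11.3% and 12.9%). In male cells 1 of these falls was lost without male plastic 4 or male gel 1. Myofibroblasts themselves express several of these contractile genes, and the part of such cells in the rise of COL4A1, COL4A2 and HSPG2 was not tested. Of the 20 endothelial markers, all tested, 4 rose in female cells (ROBO4, ERG, SOX18 and LYVE1), where 12.7% of all genes rose. In male cells 3 rose (1 without male plastic 3, male plastic 4 or male gel 1), near the 12.9% of all genes. In neither sex did any fall. With the replicate number as a block 7 and 8 rose, where 14.5% and 15.5% of all genes rose. The sum of 10 leukocyte markers was 5.76 to 38.5 CPM, with CD3E and CD2 at 0 in all 16 libraries. Of its 3 tested genes LAPTM5 rose (by 2.14 in female and 2.35 in male cells; the female call was lost without female plastic 1 or female gel 3), and CD14 fell in both sexes. The sum of 10 Schwann cell and melanocyte markers was 3.26 to 14.8 CPM, with CDH19 at 0; of its 3 tested genes S100B fell in both sexes (by 0.67 in female cells, a call lost without female plastic 1, female plastic 3 or female gel 1, and in male cells a change of -0.59, lost without male plastic 1, 2 or 4, male gel 2 or 3 or female gel 3). The sum of the epithelial markers reached no more than 0.509 CPM.

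The genes with the profile nearest to each of the 10 over the 16 libraries were found from the root mean square difference of log2 levels centred on each gene's mean, as a description. LAMB1 and LAMC1 were each other's nearest named gene (0.0971), followed by KDSR for LAMB1 and DICER1 for LAMC1. COL4A2 was nearest to COL5A1, a fibrillar collagen chain (0.135), then to KIAA0930 and EML1, with COL4A1 at rank 10. COL4A1 was nearest to DCLK2 (0.194), BID and YWHAH, with COL4A2 at rank 8 (0.215). HSPG2 was nearest to CSPG4, another proteoglycan gene and one of the pericyte markers (0.143), then to SELENOM and FADS3. NID1 was nearest to BCR (0.0859), PPP4R1 and MGAT4B, NID2 to SIPA1L1 (0.165) and SPTAN1, and LAMA4 to RPL19 (0.101), PRKCSH and CBX1. For LAMB2 they were AKT2 (0.117), SDC3 and LZTS2. LAMA2, whose counts were low, had no gene nearer than 0.389.

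The remaining genes of the basement membrane matrix did not move as one group. Of 28, 21 were tested; COL4A3, LAMB3, LAMB4, LAMC3, SMOC2, HMCN2 and EGFLAM reached at most 0.845 CPM in any library. In female cells 6 rose and 3 fell (12.7% and 11.3% of all genes), and in male cells 7 rose and 3 fell (12.9% and 12.9%), so that the falls were near the share of all genes. The medians were 0.27 and 0.24. With the replicate number as a block 6 fell in female and 5 in male cells. The falls in male cells numbered 1 without male plastic 1, male plastic 4 or male gel 3.

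COL15A1, a collagen that links basement membranes to the matrix beneath, had 1837, 2996, 3072 and 2449 CPM in female plastic libraries, against 1209, 1449, 1264 and 1018 CPM in female gel libraries. It rose by 1.07 (SE 0.14, edgeR adjusted p = 5.04e-05) in female and by 1.19 (SE 0.14, adjusted p = 1.74e-05) in male cells. HMCN1, a large hemicentin, rose by 0.92 and 1.06 in female and male cells, SPARC, a collagen-binding glycoprotein named after its values were seen, by 0.40 and 0.39, and TINAGL1, at 3.16 to 6.24 CPM on plastic and 0.394 to 0.937 CPM on the gel, by 2.76 and 3.25. SMOC1, which encodes a calcium-binding matrix protein of basement membranes, fell most, to 4.31 to 13.4 CPM in female plastic libraries, against 43.9 to 93.2 CPM in female gel libraries (-3.06, SE 0.34, adjusted p = 8.6e-06). In male cells SMOC1 had 5.51 to 9.34 CPM on plastic, against 36.5 to 73.6 CPM on the gel (-2.86, SE 0.34, adjusted p = 1.48e-05).

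COL4A5, a further collagen IV chain, fell while COL4A1 and COL4A2 rose. It had 65.7, 67.3, 71.4 and 81.6 CPM in female plastic libraries, against 128, 98, 101 and 94.9 CPM in female gel libraries, and 49.8, 76.2, 90.7 and 53.5 CPM in male plastic libraries, against 79.3, 114, 127 and 83.6 CPM in male gel libraries. The female groups did not overlap and the male groups did. The change was -0.56 (SE 0.19, edgeR adjusted p = 0.038) in female and -0.58 (SE 0.19, adjusted p = 0.0318) in male cells. The female call was lost without any of female plastic 1, 2 and 3 or female gel 1, 2 and 3, and the male call without male plastic 1, male plastic 4, male gel 2 or male gel 3. COL18A1, the source of endostatin, fell by 0.85 (adjusted p = 0.00589) in female cells; it lost its male call (-0.57, adjusted p = 0.0496) in 15 of the 16 fits that left out 1 library, male gel 2 being the exception.

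Of the alpha laminin chains outside the 10 genes, LAMA1 and LAMA3 rose in both sexes and LAMA5 in male cells. LAMA1, the alpha chain of early embryonic basement membranes, had 38.3, 7.2, 6.03 and 5.23 CPM in female plastic libraries, against 2.34, 0.787, 0.985 and 1.16 CPM in female gel libraries, with female plastic 1 far above the rest. It rose by 3.42 (SE 0.72, edgeR adjusted p = 0.00221) in female cells, and by 2.23 (adjusted p = 0.00866) without female plastic 1; in male cells it rose by 3.38 (SE 0.75, adjusted p = 0.00339). LAMA3, an epithelial alpha chain, was at most 8.66 CPM and rose by 1.59 in female and 1.63 in male cells. LAMA5 had 856, 1032, 985 and 1330 CPM in male plastic libraries, against 449, 146, 412 and 631 CPM in male gel libraries, and rose by 1.36 (adjusted p = 0.0115), or 1.08 (adjusted p = 0.0174) without male gel 2. In female cells LAMA5 overlapped between surfaces and was not called (0.59, adjusted p = 0.255). LAMA1 and LAMA5 are named after their values were seen.

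Receptors and linkers, the integrins, dystroglycan complex and collagen receptors that bind cells to these matrices, had all 20 listed genes tested. In female cells 5 rose and 3 fell, where 12.7% of all genes rose and 11.3% fell. In male cells 7 rose and 1 fell, where 12.9% rose and 12.9% fell; 2 fell with the replicate number as a block, and 2 without male gel 2. The medians were 0.29 and 0.30. The female falls numbered 1 without female plastic 3 or female gel 4. ITGA1, which pairs with ITGB1 as a receptor for collagen IV, had 1361, 1573, 1544 and 1630 CPM in female plastic libraries, against 615, 365, 378 and 451 CPM in female gel libraries. It rose by 1.76 (SE 0.16, edgeR adjusted p = 1.24e-06) in female and by 1.58 (SE 0.16, adjusted p = 3.12e-06) in male cells. ITGB1 rose by 1.53 and 1.24, ITGA7, a laminin receptor of muscle, by 2.91 and 3.40, and DMD, the dystrophin gene, by 1.07 and 0.96. ITGA7 was lowest among plastic libraries in female plastic 1 (25 CPM) and female plastic 4 (49 CPM), beside 71.8 to 112 CPM in the others. DDR2, a receptor mainly for fibrillar collagens, fell by 0.47 in female cells and fell by 0.55 in male cells.

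Of 17 genes of collagen IV biosynthesis, export and crosslinking, all tested, 4 rose and 3 fell in female cells (12.7% and 11.3% of all genes), and 5 rose and 3 fell in male cells (12.9% and 12.9%). The medians were -0.03 and 0.07, and the falls were near the share of all genes that fell. The lysyl hydroxylase PLOD2 rose by 0.92 (SE 0.14, edgeR adjusted p = 0.00016) in female and by 0.47 (SE 0.14, adjusted p = 0.0198) in male cells. Genes of the export of large collagens from the endoplasmic reticulum also rose: MIA3 by 0.53 and 0.28, SEC23A by 0.37 and 0.29, and SEC24D by 0.30 and 0.26. The prolyl hydroxylase subunit P4HA2 fell by 0.33 in female cells and fell by 0.37 in male cells. The lysyl hydroxylase PLOD1 fell by 0.60 and, in male cells, fell by 0.62. These counts were fragile. Scaling by total counts left 2 that rose and 7 that fell in female cells (7.38% and 29.8% of all genes), and 0 and 5 in male cells (7.85% and 33.1%), with PLOD2 and MIA3 the ones that stayed up in female cells. The female falls numbered 1 without female plastic 2, 3 or 4 or female gel 4, and 5 without male gel 2; the male rises numbered 2 without male plastic 1 or male gel 3, and the male falls 1 without male plastic 3 or male gel 4. Out of 16 such fits, PLOD1 lost its female call in 8 and its male call in 5, P4HA2 in 5 and 2, and in male cells MIA3 lost it in 4, SEC24D in 4 and PLOD2 in 2.

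Among proteases that cut basement membrane proteins, MMP2, MMP14, CTSL and BMP1 were called lower on plastic in both sexes. Of 14 listed, 11 were tested. In female cells 1 rose, 6 fell and 4 were not called, where 12.7% of all genes rose and 11.3% fell. Male cells had 1 that rose and 4 that fell, with 6 not called, where 12.9% rose and 12.9% fell. The medians were -0.52 and -0.42. MMP2, a gelatinase that cuts collagen IV, had 724, 1012, 900 and 769 CPM in female plastic libraries, against 1180, 1923, 1568 and 1460 CPM in female gel libraries. In male cells it had 915, 1029, 918 and 680 CPM on plastic, against 1931, 1453, 1594 and 1447 CPM on the gel, so that no groups of 1 sex overlapped. MMP2 fell by 0.85 (SE 0.16, edgeR adjusted p = 0.00104) in female and fell by 0.86 (SE 0.16, adjusted p = 0.000908) in male cells. MMP14, the membrane-bound activator of MMP2, fell by 0.43 in each sex. CTSL, a lysosomal cathepsin, fell by 4.19 in female cells and fell by 3.73 in male cells, with at most 6.12 CPM on plastic and 13.5 to 154 CPM among gel libraries. BMP1, which cuts procollagens and laminin chains, fell by 0.52 in female cells and fell by 0.42 in male cells, but this male call was lost in 7 of 16 fits that left out 1 library and with the replicate number as a block (-0.39, adjusted p = 0.0587). MMP15 rose by 0.63 and 0.74, with at most 10.2 CPM in any library; in female cells scaling by total counts ended that call (0.40, adjusted p = 0.0897).

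**Figure D5:**
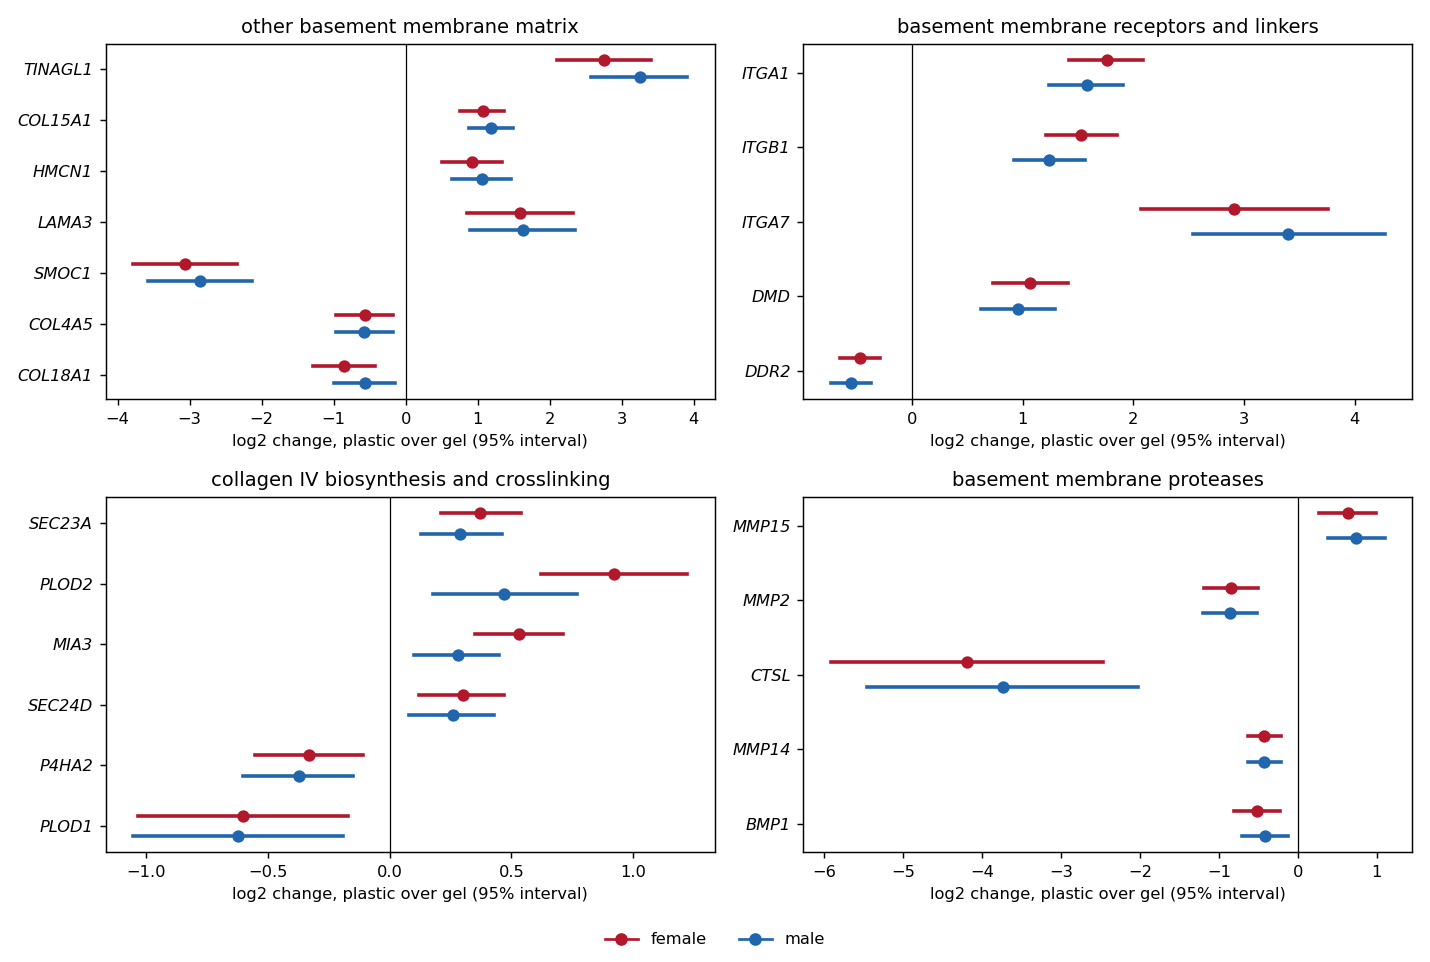
Log2 change on plastic over gel, with 95% intervals and female above male, for listed genes called in the same direction in both sexes (at most 4 a direction and list). In the matrix panel COL4A5, COL18A1 and SMOC1 lie below 0, and in the protease panel MMP2, CTSL, MMP14 and BMP1 do.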

How the data were processed

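Polyadenylated RNA of 16 cultures was measured. Per the labels, the RNeasy Micro and KAPA mRNA HyperPrep kits were used for RNA and libraries. Values in the deposited table are whole-number, unnormalized counts of reads for each gene. Per the submitters' processing notes, FastQC 0.11.5, Trimmomatic 0.36, HISAT2 2.1.0, SAMtools 1.3.1, featureCounts and the build Sscrofa11.1 were used; a strand setting is not given in the sources used here. Of 29576 entries, 24 carried a number in place of a gene name (0.169% of counts) and were left out. Coordinates came from RefSeq on Sscrofa11.1, which matched 29552 genes.

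Counts were tested with edgeR 4.0.16 (quasi-likelihood F test, R 4.3.3) on 4 group means over 16 libraries, after filterByExpr and TMM scaling, with 12 residual degrees of freedom. Benjamini-Hochberg adjustment ran over 14530 of the 22139 genes with a count, and calls were made at 0.05. The median biological coefficient of variation was 0.182. Log2 ratios of raw counts were tested by exact permutation over samples. Alternatives were size factors of DESeq2, DESeq2 1.42.0 itself, no filter, a block for the replicate number (for the sex comparisons with limma 3.58.1, estimated correlation 0.187), each library left out and, chosen after seeing the data, total counts as the scale and the block without male number 2. The edgeR and DESeq2 steps were tested on simulated data. No library copied another (chi-square per degree of freedom 9.93 to 81.9 over 24 pairs within groups). Same-numbered libraries of a sex deviated together from their group means in every pair (r = 0.13 to 0.49, across genes). For 16 of 16 libraries the best correlation was with the same number, so the numbers were taken to pair the libraries in the block, the pairs and the sign flips. The main fit and the permutation over samples did not use the pairing, as the labels do not state it. P-values set the differences between groups against the spread between these cultures.

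The genes and lists were chosen with earlier results of these data known. Named beside the 10 genes were, from each list, at most 4 genes per direction with the smallest adjusted p among those called alike in both sexes, the 3 nearest profiles of each gene (genes with only a LOC name were left unnamed), and 4 contractile genes.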

Additional observations from a re-analysis of the deposited data

Results flagged for a closer look

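Of 56 groups of 4 libraries checked, 2 held a library that stood far from its other 3, and chance gives about 1 in 20. LAMA4 had 964 CPM in female gel 2, beside 875 to 883 CPM in the other female gel libraries. The log2 COL4A1/COL4A2 ratio was 0.70 in male plastic 3, beside 0.77 to 0.78 in the other male plastic libraries.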

How the results depend on the processing

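The rises of COL4A1, COL4A2 and HSPG2 kept their calls under all 22 alternatives in both sexes, at 1.24 to 1.58, 0.85 to 1.25 and 1.00 to 1.70. Of 1100 alternative values of the 10 genes, 1061 kept their direction of call and 39 gained or lost a call, all in LAMA4, LAMB1, LAMB2, LAMC1, NID1 and NID2; the cause was not tested. Uncalled values changed sign in 10 of 440 surface and 43 of 660 sex values. Edge cases arose with DESeq2, which called LAMB1 in female (adjusted p = 0.0426) and male cells (0.029) and LAMB2 (0.0381) and LAMC1 (0.0416) in male cells. Among all genes, 3476 were called in female and 3748 in male cells. Scaling by total counts gave 5402 and 5951. The replicate block gave 4011 and 4319, and 5240 in female cells when both libraries of male number 2 were also left out; it gave 18, 16 and 0 for the sex comparisons on plastic and gel and their difference. Leaving out each library gave 2780 to 4444 in female and 2859 to 3961 in male cells, DESeq2 gave 3919 and 4166, and no filter 3098 and 3293. Under the block, the calls of the 10 genes not given above were those of the fit without it. Changes of LAMA2 inside its wide intervals remained compatible with the data, and the 4 libraries a group cannot give an exact p under 0.0286.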
